A study of Mus musculus with 12 samples.

Results

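Starvation and oxaliplatin were compared here for genes on which their effects did not add. The cells were CT26, a line grown from a mouse colon carcinoma, and their RNA was read on 12 Affymetrix arrays in 4 groups of 3. STS+OXP cells were kept for 48 hours under short-term starvation (STS), with glucose at 0.5 g/L and serum at 1%, and were given the platinum drug oxaliplatin (OXP). OXP cells received the drug in full medium (glucose at 1 g/L, serum at 10%). STS cells were starved and received no drug. Control (CTR) cells stayed in full medium without it. The labels give 10 µM OXP, added 24 hours after the change of medium, but the sources disagree on dose and timing. All groups are the same line, and the sources do not state if a group's 3 arrays came from separate cultures, so the p-values measure the spread between these arrays, which may be technical.

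The STS effect was measured as STS+OXP minus OXP in the presence of the drug and as STS minus CTR in its absence, both on the log2 scale, and the interaction is the first minus the second. The same number is the OXP effect in starved cells minus the OXP effect in full medium. An interaction of 0 means that the folds of both treatments multiplied. Of 17097 genes measured, 1417 had an interaction at an adjusted p under 0.05 (limma, Benjamini-Hochberg over all genes), which is 8.29% of all genes and is the background against which each gene list is read. The interaction was negative in 985 genes (5.76%) and positive in 432 (2.53%). An unadjusted p under 0.05 was found for 3608 genes (21.1%). Over all genes the median interaction was 0.0285.

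The members were divided by the shape of their group means, as a description with no test. A gene was named reversing where both STS effects were at least 0.25 in size and of opposite sign, which applied to 245 genes (1.43%). It was named saturating where the STS effect was smaller with OXP than without it and the sign held or the effect with OXP was under 0.25, which applied to 1120 genes (6.55%). It was named amplifying where the STS effect was larger with OXP and the sign held or the effect without OXP was under 0.25, which applied to 52 genes (0.304%). Only 1 of the 52, Gins2, had the same sign of both STS effects, with -0.53 with OXP and -0.04 without it. The sets have soft edges. With a limit of 0.5 in place of 0.25 the reversing genes numbered 23, and with a limit of 0 they numbered 985.

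A pair of OXP arrays stood apart. OXP replicate 1 had a 3′ minus 5′ difference of 3.85 (log2) between the control sets for Gapdh and of 2.33 for those for Actb, where the other arrays had -0.117 to 0.284 and 0.842 to 1.33. OXP replicate 2 lay nearer to the STS+OXP arrays, at a root mean square distance of 0.173, than to its own group, at 0.298. OXP replicate 3 also lay nearer to STS+OXP, at 0.242, than to its own group, at 0.274, by a smaller margin. The part of these arrays in the interactions was not tested. Saturating, reversing and amplifying genes numbered 1012, 414 and 330 without OXP replicate 2, 1403, 141 and 104 without OXP replicate 1, and 935, 305 and 315 without both. All 1417 genes kept the sign of the interaction without OXP replicate 1, without OXP replicate 2 and without both. The genes were called on these same arrays, most of which the reduced fits reuse, so the kept sign is not independent of that choice. Without OXP replicate 2 there were 1756 called genes (10.3%), of which 1296 were among the 1417. Without OXP replicate 1 there were 1648 (9.64%), with 1293 shared, and without both, where a single OXP array is left and its spread is taken from the other groups, 1555 (9.1%), with 1038 shared. At the level of control probe sets without a target in all groups were 10 of 13 macrophage, 9 of 14 lymphocyte and 9 of 10 endothelial markers, 3 of 10 fibroblast markers and 10 of 15 epithelial markers, Cdh1 among them, while Epcam (4.87 in STS+OXP cells, 4.66 in OXP cells, 4.83 in STS cells and 4.79 in CTR) and the junction protein Tjp1 (9.30, 9.22, 9.22 and 8.74 in the same groups, interaction -0.41) were above it.

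**Figure D1:**
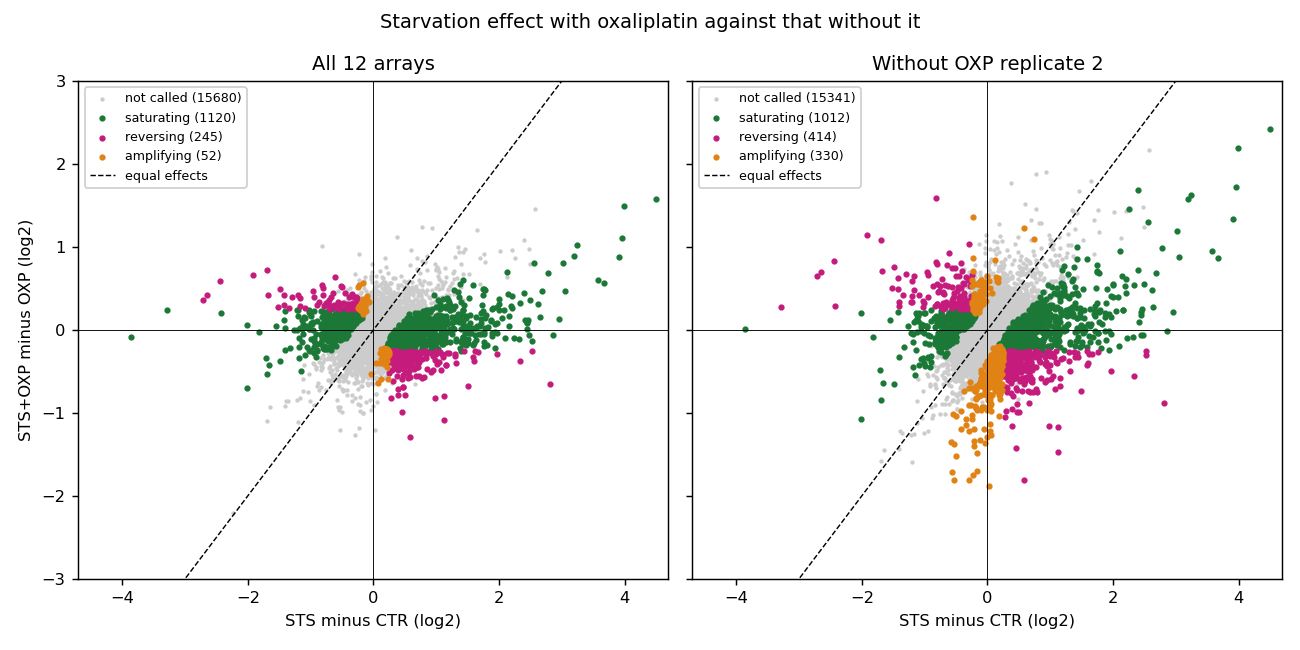
The STS effect with OXP (STS+OXP minus OXP, log2, vertical axis) is plotted against the STS effect without OXP (STS minus CTR, log2, horizontal axis) for each of 17097 genes, from all 12 arrays on the left and without OXP replicate 2 on the right. Colours mark the 3 shapes, and the dashed line marks equal effects; with all arrays the 1120 saturating genes lie along the horizontal axis, and without OXP replicate 2 the amplifying genes number 330, against 52 with all arrays.

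Over all genes, the STS effect was smaller in size with the drug than without it in 60.8%, and in 55.2% without OXP replicate 2. Between STS+OXP and OXP 2 genes passed the test (0.0117%), against 2819 (16.5%) between STS and CTR, and these comparisons share no array. The count between STS and CTR was 3190 without OXP replicate 2, 3527 without OXP replicate 1 and 3906 without both. The genes counted next were chosen by their call between STS and CTR, so their STS effects with and without the drug are not independent of that choice. Of the 1667 genes (9.75%) that STS raised without the drug, 892 (53.5%) also had a positive STS effect beside it, with a median STS effect of 0.0149 with OXP and 0.56 without it. Of the 1152 (6.74%) that STS lowered, 753 (65.4%) also had a negative one, with medians of -0.0718 with OXP and -0.44 without it. Over all genes, whatever their STS effect without the drug, 49.7% had a positive STS effect with OXP. The count for STS+OXP against OXP rests on OXP replicate 2, since it was 1166 (6.82%) without that array and 3 (0.0175%) without OXP replicate 1.

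Among the saturating genes, 772 were higher and 348 lower in STS than in CTR. In 715 of the 772, OXP alone also raised the mean, with medians of 0.83 in STS+OXP cells, 0.89 in OXP and 0.70 in STS, all relative to CTR on the log2 scale. In 658 of these 715 the STS+OXP mean was within 0.25 of the OXP mean, and in 175 it lay beyond both single treatments. In 329 of the 348, OXP alone also lowered the mean, with medians of -0.65 in STS+OXP cells, -0.69 in OXP and -0.59 in STS. Of these 329, 50 were at background in both OXP groups, meaning no brighter than the highest of 22 control probe sets without a target. At the bright end, 5 of the 772 raised genes had an OXP mean within 1 log2 unit of the top of the dimmest array, and the median OXP mean of the 772 was 7.06, where the highest gene signals were 12.5 to 12.7. In 57 genes raised by STS and in 19 lowered by it, OXP moved the mean the opposite way.

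Interferon-stimulated genes made up the most uniform group. Type I interferons act through a receptor on the cell surface and raise genes that hinder viruses, many of which carry a response element before their start. DNA in the cytosol, sensed as a sign of damage or infection, is known to start this response. Of 39 such genes measured, 37 passed the test for the interaction (94.9%, against 8.29% of all genes), and all 37 were lower, 33 saturating and 4 reversing. Their median STS effect was 0.037 with OXP and 1.70 without it, and their median OXP effect was 0.102 in starved cells and 1.77 in full medium. With any 1 array left out 35 to 38 of the 39 passed. The median of the list on single arrays, relative to the CTR mean, was 1.78 to 1.80 in STS+OXP cells, 1.64 to 1.91 in OXP and 1.63 to 1.73 in STS, so that the 9 arrays of treated cells lay close together and far from CTR, at -0.0941 to 0.0515.

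Gbp2, a guanylate-binding protein that attacks vacuoles of intracellular pathogens, was at 8.56, 8.58 and 8.56 on the STS+OXP arrays, 8.79, 8.47 and 8.85 on the OXP arrays, 8.11, 8.24 and 8.16 on the STS arrays and 5.59, 5.53 and 5.80 on the CTR arrays (log2 signal). All treated arrays exceeded all CTR arrays by more than 2 log2 units, and the STS+OXP and OXP arrays overlapped. Its interaction was -2.66 (standard error 0.143, adjusted p = 3.26e-07, limma). Ifit1, which binds foreign RNA, was at 11.09, 11.08 and 11.14 in STS+OXP cells, 11.15, 11.15 and 11.11 in OXP cells, 10.64, 10.65 and 10.60 in STS cells and 9.04, 9.14 and 9.08 in CTR. Its arrays were among the tightest, and here each treatment alone set a level of its own while their combination stayed at that of OXP (interaction -1.58, standard error 0.0861, adjusted p = 3.26e-07). Lgals9, a galectin that binds immune checkpoint receptors, was at 8.12, 7.90 and 7.92 in STS+OXP cells, 8.27, 8.15 and 8.19 in OXP cells, 8.06, 8.003 and 7.92 in STS cells and 6.13, 6.09 and 5.93 in CTR. The 3 treated groups lay within a narrow band, and the interaction was -2.16 (standard error 0.118, adjusted p = 3.26e-07).

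In other members OXP replicate 2 parted from its group. Ifi44l, an interferon-induced protein, was at 9.21, 8.97 and 8.99 in STS+OXP cells, 8.21, 9.18 and 7.99 in OXP cells, 9.44, 9.65 and 9.75 in STS cells and 5.87, 6.19 and 6.04 in CTR. OXP replicate 2 lay among the STS+OXP arrays and the other 2 OXP arrays below them. The interaction was -2.98 (adjusted p = 5.94e-05) with all arrays and -2.63 (adjusted p = 6.77e-07) without OXP replicate 2, and the STS effect with OXP was then 0.95 (adjusted p = 0.000438), so a part of the STS effect remained. The interferon-inducible GTPase Iigp1 had the same form, with means of 8.55 in STS+OXP cells, 7.98 in OXP cells, 9.21 in STS cells and 5.54 in CTR and an interaction of -3.10 (adjusted p = 6.3e-05). Among the members Ifi27l2a, a short interferon-induced protein, had the largest OXP and STS effects, 3.18 and 3.95 (interaction -2.84, adjusted p = 0.00333). The chemokine Cxcl10, which draws T cells, was the exception in direction. It was at 6.19, 6.51 and 6.30 in STS+OXP cells, 7.36, 6.72 and 7.29 in OXP cells, 8.49, 8.60 and 8.67 in STS cells and 8.14, 7.91 and 8.18 in CTR, so that OXP lowered it, and more so in starved cells (interaction -1.30, adjusted p = 0.00154). The 2 members not called were Irf7, a factor that amplifies the response (interaction -1.50), and Eif2ak2, a kinase activated by double-stranded RNA (-0.81).

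The stretches before the start of 4 called interferon-stimulated genes are shown because they hold letters of the interferon response element type. The motif searched was GAAANNGAAA on both strands, in the 250 bases before the first start that RefSeq lists (GRCm38.p6), chosen after the values were seen. It was found in 13 of 28 list members with a promoter in the table (46.4%), against 350 of 13514 genes (2.59%). Among saturating genes with an STS effect up it stood in 41 of 606 (6.77%), and among reversing genes in 13 of 195 (6.67%). Each line runs 5′ to 3′ on the gene's strand, with the matches in capitals, here all on the opposite strand.
Gbp2, chr3:142620579-142620638, plus strand: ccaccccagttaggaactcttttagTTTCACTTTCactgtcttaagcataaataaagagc
Trim30a, chr7:104465195-104465254, minus strand: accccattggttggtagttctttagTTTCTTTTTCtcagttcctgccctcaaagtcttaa
Gbp3, chr3:142559974-142560039, plus strand: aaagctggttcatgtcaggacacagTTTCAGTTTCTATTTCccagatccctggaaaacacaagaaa
Lgals9, chr11:78984945-78985004, minus strand: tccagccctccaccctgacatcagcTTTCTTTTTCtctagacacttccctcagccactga
The match in Gbp2 lies 59 to 50 bases before the start, and Gbp3 holds 2 matches that overlap. Trim30a, an ubiquitin ligase that restrains innate signalling, had an interaction of -2.37 and Gbp3, a relative of Gbp2, of -2.35, and the means of all 4 genes in STS+OXP were within 0.25 of those in OXP. A match of letters is not a binding site.

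The genes of antigen presentation by class I molecules, which show peptides to T cells, followed the interferon-stimulated genes. Of 14 measured, 9 were lower and 1 higher for the interaction (71.4% called), and 9 of the 10 were saturating. H2-T23, a nonclassical class I molecule, was at 9.91, 10.11 and 9.90 in STS+OXP cells, 9.51, 9.99 and 9.47 in OXP cells, 9.24, 9.31 and 9.40 in STS cells and 6.39, 6.85 and 6.84 in CTR (interaction -2.31, standard error 0.205, adjusted p = 1.26e-05). All treated arrays lay over 2 log2 units above CTR, and the average of its probe sets gave -1.15. Nlrc5, the activator of class I genes, had an STS effect of -0.09 with OXP and 2.10 without it (interaction -2.19, adjusted p = 1.89e-05). Psmb8, a catalytic subunit of the immunoproteasome, had 0.27 with OXP and 2.22 without it (interaction -1.95, adjusted p = 1.5e-05, and -1.04 with the average of its probe sets). The member with the opposite sign was Calr, a chaperone of the endoplasmic reticulum that helps load class I molecules (interaction 0.90).

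**Figure D2:**
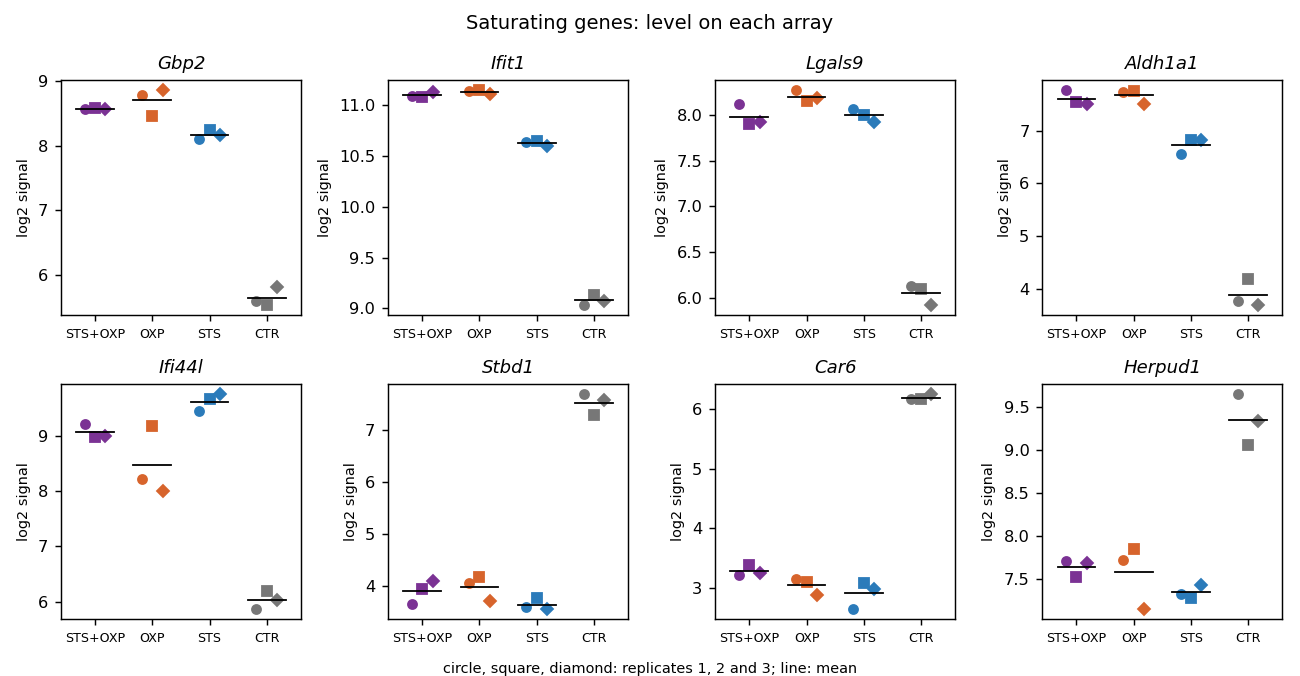
Log2 signal of 8 saturating genes on each array, in the order STS+OXP, OXP, STS and CTR, with symbols for replicates 1, 2 and 3 and a line at the mean of each group. The arrays of all treated groups lie on the same side of CTR for each gene, and in Ifi44l the OXP replicate 2 lies with STS+OXP.

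Outside these lists the largest rises that did not add were in single genes. Aldh1a1, which makes retinoic acid, was at 7.77, 7.55 and 7.52 in STS+OXP cells, 7.75, 7.76 and 7.51 in OXP cells, 6.56, 6.83 and 6.82 in STS cells and 3.76, 4.18 and 3.69 in CTR. The STS+OXP and OXP arrays overlapped, and the interaction was -2.92 (standard error 0.181, adjusted p = 6.97e-07). Ogn, a small proteoglycan of the matrix, was at 10.37, 10.33 and 10.24 in STS+OXP cells, 7.996, 10.40 and 7.79 in OXP cells, 9.25, 9.45 and 9.54 in STS cells and 4.79, 5.19 and 4.78 in CTR. In OXP it was split by more than 2 log2 units between replicate 2 and the other arrays, and its interaction of -2.91 (standard error 0.672, adjusted p = 0.0166) was not called with the average of all probe sets (adjusted p = 0.0772) or with eBayes with trend and robust (adjusted p = 0.0784), and was positive on the linear scale. Csprs was at background in CTR, and its mean exceeded CTR by at least 3.98 in STS+OXP cells, at least 3.10 in OXP and at least 3.36 in STS on the log2 scale. Its fitted interaction was -1.24 with the average of its probe sets, against -3.03. Dpt, a matrix protein made by fibroblasts, had an STS effect of 0.01 with OXP and 2.45 without it (interaction -2.44, adjusted p = 5.05e-06). It belongs to the list of 10 fibroblast markers, of which 3 were called, all lower, and whose mean level was 5.17 to 5.22 in STS+OXP cells, 5.06 to 5.24 in OXP cells, 5.23 to 5.25 in STS cells and 4.56 to 4.68 in CTR. Their part in the result was not tested.

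Among genes lowered by either treatment, Stbd1, which tethers glycogen to membranes, was at 3.67, 3.94 and 4.10 in STS+OXP cells, 4.07, 4.18 and 3.73 in OXP cells, 3.604, 3.77 and 3.57 in STS cells and 7.68, 7.28 and 7.58 in CTR. The treated arrays lay between 3.57 and 4.18, overlapping each other, and all were more than 3 below CTR. This gave the largest fitted interaction of the saturating genes that fell (3.78, standard error 0.197, adjusted p = 3.26e-07, limma). The brightest control set without a target was at 3.43 to 3.72 in STS+OXP cells, 3.21 to 3.71 in OXP and 3.42 to 3.52 in STS. The treated means of Stbd1 lay little above this level, so a further fall with both treatments could hardly be seen. Car6, a secreted carbonic anhydrase, was at 6.17, 6.17 and 6.25 in CTR and at background in all treated groups. It was thus lower than CTR by at least 2.61 in STS+OXP cells, at least 2.78 in OXP and at least 2.73 in STS, and an STS effect with OXP could not be measured below that floor. The size of its interaction was therefore not measured (adjusted p = 1.01e-07 for the fitted value). Cth, which makes cysteine, was likewise at background in all treated groups, at least 1.57 below CTR in STS+OXP, at least 1.74 in OXP and at least 1.70 in STS. Angptl6, a secreted angiopoietin-like factor, was above background in every group, with means of 4.74 in STS+OXP cells, 4.53 in OXP cells, 4.30 in STS cells and 6.72 in CTR (interaction 2.63, adjusted p = 4.2e-06). Chka, the first enzyme of phosphatidylcholine synthesis, had means of 6.41, 6.18, 6.63 and 8.04 in the same groups (interaction 1.64, adjusted p = 4.21e-05).

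The HIF-1 targets, which serve glycolysis and the response to low oxygen, held 7 called members of 31 (22.6%), all higher for the interaction and all saturating, with a median STS effect of -0.178 with OXP and -0.50 without it. Ero1a, an oxidase that forms disulfide bonds, was at 7.36, 7.31 and 7.32 in STS+OXP cells, 7.87, 7.37 and 7.76 in OXP cells, 7.92, 7.76 and 7.58 in STS cells and 9.48, 9.42 and 9.51 in CTR. All treated arrays were below CTR by more than 1.4, and OXP replicate 2 again lay beside STS+OXP (interaction 1.38, standard error 0.164, adjusted p = 0.000145). P4ha2, a collagen hydroxylase, had an interaction of 1.24 (adjusted p = 0.0081), or 0.81 without OXP replicates 1 and 2. Hk2, the hexokinase of many tumour cells, was at 5.73, 5.55 and 5.30 in STS+OXP cells, 5.74, 5.399 and 5.63 in OXP cells, 7.16, 6.82 and 6.95 in STS cells and 7.81, 7.81 and 7.80 in CTR. Here OXP alone lowered the mean by more than STS alone, and starved and fed cells given OXP overlapped (interaction 0.77, standard error 0.168, adjusted p = 0.0124). Slc2a1, the glucose carrier GLUT1, was at 8.53, 8.68 and 8.66 in STS+OXP cells, 9.002, 8.61 and 8.89 in OXP cells, 8.61, 8.44 and 8.40 in STS cells and 9.36, 9.44 and 9.48 in CTR, and its interaction was 0.74 (standard error 0.14, adjusted p = 0.00517). Ndrg1, a stress-induced protein, had 1.16 (adjusted p = 0.0261), and its call was lost on leaving out CTR replicate 1 or 3, STS replicate 2 or 3 or STS+OXP replicate 2 or 3 (adjusted p from 0.0512 to 0.076).

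The core of the hypoxia response element, ACGTG on either strand, stood in the promoters of all 5 called HIF-1 targets with a promoter in the table, in 16 of 28 list members (57.1%) and in 2675 of 13514 genes (19.8%). It was found in 94 of 282 saturating genes with an STS effect down (33.3%) and in 95 of 606 with an STS effect up (15.7%). The core is short and was not particular to HIF-1 targets. It stood in 42.1% of endoplasmic reticulum chaperones, 41.7% of antigen presentation genes, 31% of ATF4 targets and 26.5% of DNA replication genes. Interferon-stimulated genes had it in 7.14%. The lines below show it in 3 called members.
Ero1a, chr14:45318606-45318660, minus strand: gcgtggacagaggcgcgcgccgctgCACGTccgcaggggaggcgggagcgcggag
P4ha2, chr11:54100821-54100875, plus strand: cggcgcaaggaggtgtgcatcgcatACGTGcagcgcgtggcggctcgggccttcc
Slc2a1, chr4:119108684-119108738, plus strand: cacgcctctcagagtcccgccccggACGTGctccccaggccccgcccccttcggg
The match lies 63 to 59 bases before the start in Ero1a, 78 to 74 in P4ha2 and 36 to 32 in Slc2a1.

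Chaperones of the endoplasmic reticulum held many reversing genes with all arrays. Proteins made for secretion fold in this compartment, and when folding fails the sensors of the unfolded protein response raise the chaperones through the factors ATF6 and XBP1. Of 21 such genes, 17 were higher for the interaction (81%, against 2.53% of all genes) and none was lower, in the main comparison and with any 1 array left out. Of these, 11 were reversing and 6 saturating with all arrays, 13 and 4 without OXP replicate 2, and 4 and 13 without OXP replicate 1, so the shape rests on the OXP arrays while the call does not. The median STS effect was 0.25 with OXP and -0.95 without it, and the median OXP effect was 0.16 in starved cells and -0.99 in full medium.

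Creld2, a secreted folding factor, was at 7.98, 7.91 and 8.04 in STS+OXP cells, 7.51, 8.17 and 7.16 in OXP cells, 7.47, 7.61 and 7.54 in STS cells and 10.37, 10.25 and 10.16 in CTR. Each treatment alone lowered it by more than 2, and the combination stayed above the STS arrays and above 2 of the 3 OXP arrays. Its interaction was 3.08 (standard error 0.254, adjusted p = 5.52e-06), and without OXP replicate 2 its STS effect with OXP was 0.64 (adjusted p = 0.00242). Sdf2l1, a partner of the main chaperone, had the same size of interaction, 3.08 (standard error 0.265, adjusted p = 9.24e-06), with 7.03, 7.03 and 6.71 in STS+OXP cells, 6.09, 7.06 and 6.36 in OXP cells, 6.63, 6.54 and 6.58 in STS cells and 9.43, 9.11 and 9.19 in CTR. It was saturating and not reversing without OXP replicate 1. Hspa5, that main chaperone, known as BiP, was at 11.13, 10.85 and 10.97 in STS+OXP cells, 10.30, 11.11 and 10.37 in OXP cells, 10.76, 10.81 and 10.89 in STS cells and 12.02, 11.93 and 12.001 in CTR (interaction 1.55, standard error 0.23, adjusted p = 0.000851). Its OXP replicate 2 lay within the STS+OXP range, and the other OXP arrays lay below every other array. Herpud1, which takes part in the disposal of misfolded proteins, was saturating, with means of 7.64 in STS+OXP cells, 7.57 in OXP cells, 7.34 in STS cells and 9.35 in CTR (interaction 2.08, adjusted p = 9.85e-05).

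An element of the type bound by the factor ATF6, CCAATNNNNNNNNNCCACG on either strand, stood in 9 of 19 list members with a promoter in the table (47.4%), against 19 of 13514 genes (0.141%). It was also found in 6 of 195 reversing genes (3.08%). Among saturating genes it stood in 3 of 282 with an STS effect down (1.06%) and in none of 606 with an STS effect up. The lines show it in 4 called chaperone genes.
Creld2, chr15:88819495-88819563, plus strand: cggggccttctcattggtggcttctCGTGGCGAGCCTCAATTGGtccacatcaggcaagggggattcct
Dnajc3, chr14:118937802-118937870, plus strand: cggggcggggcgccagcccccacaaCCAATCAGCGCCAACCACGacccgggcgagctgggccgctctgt
Hspa5, chr2:34772000-34772068, plus strand: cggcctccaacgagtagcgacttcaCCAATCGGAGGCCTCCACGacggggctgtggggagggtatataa
Syvn1, chr19:6046507-6046575, plus strand: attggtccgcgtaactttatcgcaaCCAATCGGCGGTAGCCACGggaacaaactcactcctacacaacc
Dnajc3, a cochaperone, had an interaction of 1.70, and Syvn1, the ubiquitin ligase that disposes of misfolded proteins, of 1.18. In Creld2 the match is on the opposite strand, 126 to 108 bases before the start.

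Targets of ATF4, the factor of the amino acid and integrated stress response, moved with the chaperones. Of 35 measured, 28 were higher for the interaction (80%) and none lower, 14 reversing and 14 saturating, and with any 1 array left out 22 to 30 were called. The reversing members numbered 18 without OXP replicate 2 and 9 without OXP replicate 1. The median STS effect was 0.24 with OXP and -0.70 without it, and the median OXP effect was -0.168 in starved cells and -1.24 in full medium. Trib3, a pseudokinase that restrains ATF4 signalling, was at 5.59, 5.72 and 5.71 in STS+OXP cells, 4.699, 5.56 and 4.98 in OXP cells, 5.84, 5.82 and 5.81 in STS cells and 8.38, 8.17 and 8.26 in CTR. OXP arrays lay below all starved arrays, with or without the drug, and all lay more than 2 below CTR (interaction 3.04, standard error 0.223, adjusted p = 2.15e-06). Ddit3, the proapoptotic factor CHOP, was at 8.12, 8.31 and 8.04 in STS+OXP cells, 7.05, 8.14 and 7.10 in OXP cells, 7.29, 7.23 and 7.07 in STS cells and 9.43, 8.41 and 8.83 in CTR. The STS+OXP arrays stood above all STS arrays and below all CTR arrays (interaction 2.42, standard error 0.378, adjusted p = 0.00128). Chac1, which degrades glutathione, was at 6.87, 6.95 and 7.12 in STS+OXP cells, 6.36, 7.01 and 6.08 in OXP cells, 7.12, 7.27 and 7.04 in STS cells and 8.86, 8.44 and 8.58 in CTR (interaction 1.98, standard error 0.262, adjusted p = 0.00034). Gadd45a, a stress sensor that halts the cycle, is not on this list but on those of p53 and FoxO targets, and it also reversed. It was at 6.52, 6.15 and 6.50 in STS+OXP cells, 5.48, 6.68 and 5.01 in OXP cells, 6.30, 6.56 and 6.39 in STS cells and 8.63, 8.17 and 8.19 in CTR (interaction 2.58, standard error 0.429, adjusted p = 0.00205, limma). OXP replicate 2 exceeded the other OXP arrays by more than 1.1.

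A core of the sites that ATF4 binds, TGATGNAA on either strand, stood in 9 of 29 list members with a promoter in the table (31%), against 326 of 13514 genes (2.41%). The lines show it in 4 called members.
Chac1, chr2:119351024-119351081, plus strand: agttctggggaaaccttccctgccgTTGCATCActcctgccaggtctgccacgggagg
Nupr1, chr7:126625548-126625605, minus strand: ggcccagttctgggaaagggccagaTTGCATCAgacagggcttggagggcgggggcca
Pck2, chr14:55540138-55540195, plus strand: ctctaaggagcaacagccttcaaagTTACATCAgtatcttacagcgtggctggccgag
Asns, chr6:7693210-7693257, minus strand: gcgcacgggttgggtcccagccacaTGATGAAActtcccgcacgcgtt
Asns, asparagine synthetase, had an interaction of 1.00 (adjusted p = 0.000714), and OXP lowered it in both media, with means of 8.77 in STS+OXP cells, 8.47 in OXP cells, 9.75 in STS cells and 10.4 in CTR. Nupr1, a stress-induced chromatin protein, had an interaction of 1.26 and Pck2, the mitochondrial carboxykinase, of 1.08 (adjusted p = 0.0491).

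The serine and folate enzymes held 7 called genes of 15 (46.7%), all higher, and the glutamine list 5 of 14 (35.7%), all higher. Both lists share members with the ATF4 targets, so these counts overlap with those above. Shared are, among others, Psph and Shmt2 in the first list and Asns and Slc7a5 in the second. Aldh1l2, a folate dehydrogenase of mitochondria, had an STS effect of 0.24 with OXP and -1.20 without it (interaction 1.44, adjusted p = 0.000145), and Psph, the last enzyme of serine synthesis, of 0.03 and -1.11 (interaction 1.14, adjusted p = 0.00183). Shmt2, the mitochondrial hydroxymethyltransferase, was near the threshold (interaction 1.32, adjusted p = 0.0481, and 0.87 without OXP replicate 1 or with averaged probe sets). Its call was lost when any 1 of CTR, STS or STS+OXP arrays was left out (adjusted p from 0.0675 to 0.123). Slc7a5, the carrier of large neutral amino acids, was at 6.98, 7.37 and 7.14 in STS+OXP cells, 6.45, 7.09 and 6.03 in OXP cells, 8.90, 8.80 and 8.83 in STS cells and 9.48, 9.40 and 9.50 in CTR. OXP was here the larger effect by far, and the interaction was 1.26 (standard error 0.272, adjusted p = 0.0112). Gpt2, a transaminase that feeds on glutamate, had 1.20 (adjusted p = 0.00147). Slc1a5, a glutamine carrier, was close to additive, with means of 6.38 in STS+OXP cells, 6.28 in OXP cells, 7.68 in STS cells and 7.51 in CTR and an interaction of -0.07 (standard error 0.109, adjusted p = 0.76).

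**Figure D3:**
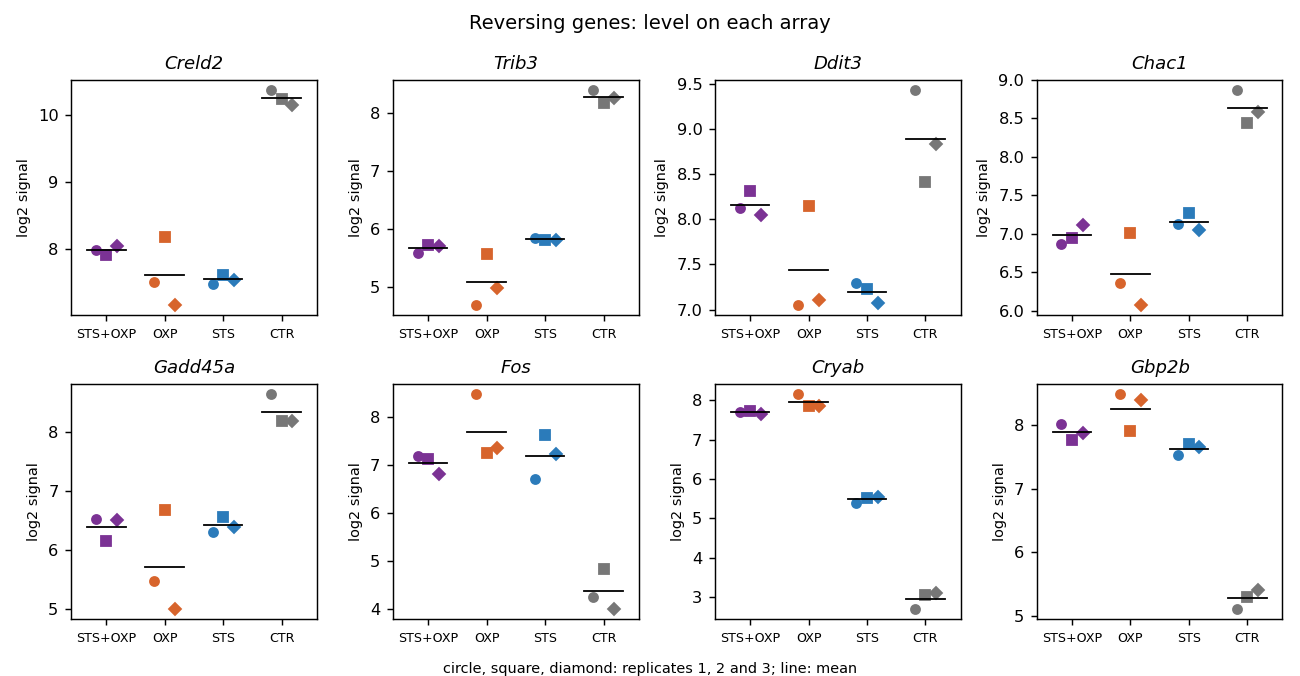
Log2 signal of 8 reversing genes on each array, in the order STS+OXP, OXP, STS and CTR, with symbols for replicates 1, 2 and 3 and a line at the mean of each group. Creld2, Trib3, Ddit3, Chac1 and Gadd45a lie lower in OXP than in STS+OXP by the mean, with OXP replicate 2 at the STS+OXP level, and Fos, Cryab and Gbp2b lie higher in OXP.

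Of the 245 reversing genes, 181 were raised by STS alone and lowered by it with OXP, by the means, and 64 were the other way round. With all arrays none of the 245 was called between STS+OXP and OXP. In 147 of the 181, OXP alone also raised the mean, with medians relative to CTR of 0.81 in STS+OXP cells, 1.20 in OXP and 0.60 in STS. The immediate early gene Fos, a subunit of the factor AP-1, was at 7.18, 7.12 and 6.80 in STS+OXP cells, 8.47, 7.24 and 7.35 in OXP cells, 6.71, 7.63 and 7.23 in STS cells and 4.26, 4.84 and 4.01 in CTR. All treated arrays lay well above CTR, the OXP arrays lay above all STS+OXP arrays and the STS arrays overlapped both groups, and the interaction was the largest of the reversing genes in size (-3.47, standard error 0.434, adjusted p = 0.000212). Gbp2b, another guanylate-binding protein, was at 8.01, 7.76 and 7.87 in STS+OXP cells, 8.47, 7.90 and 8.39 in OXP cells, 7.52, 7.70 and 7.65 in STS cells and 5.12, 5.31 and 5.42 in CTR (interaction -2.71, standard error 0.19, adjusted p = 1.37e-06). Pnp2, a purine phosphorylase, was highest in STS, with 7.18, 7.07 and 7.11 in STS+OXP cells, 7.48, 7.33 and 7.34 in OXP cells, 7.80, 7.96 and 7.84 in STS cells and 6.14, 6.30 and 6.16 in CTR. Its 4 groups did not overlap (interaction -1.93, standard error 0.107, adjusted p = 3.26e-07). Its probe set can also read its close relative Pnp.

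Some reversing genes took most of their change from OXP. Cryab, a small heat shock protein, was at background in CTR and exceeded it by at least 4.04 in STS+OXP cells, at least 4.29 in OXP and at least 1.83 in STS, and the fitted interaction was -2.78 (adjusted p = 3.26e-07). Its STS effect with OXP was -0.25, at the edge of the limit for reversal. Txnip, which slows glucose uptake and binds thioredoxin, was at 8.43, 8.44 and 8.41 in STS+OXP cells, 8.97, 8.32 and 8.87 in OXP cells, 6.33, 6.36 and 6.47 in STS cells and 3.96, 4.74 and 4.58 in CTR. STS raised it by 1.96 without OXP, and in OXP-treated cells starvation left the mean 0.29 lower (interaction -2.26, standard error 0.257, adjusted p = 0.000101). With the average of its probe sets the interaction of Txnip was -1.10, and that of Cryab -1.32, both still called. The relative of Txnip, Arrdc3, behaved alike (interaction -1.42, adjusted p = 0.00224). The inducible chaperone Hspa1b was at 6.65, 6.59 and 6.65 in STS+OXP cells, 7.85, 6.69 and 7.76 in OXP cells, 5.87, 5.74 and 5.87 in STS cells and 4.30, 4.97 and 4.84 in CTR, with OXP replicate 2 beside STS+OXP (interaction -1.92, standard error 0.344, adjusted p = 0.00338). The chemokine Ccl2, which draws monocytes, had an STS effect of -0.69 with OXP and 0.48 without it (interaction -1.17, adjusted p = 0.0162).

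Genes of DNA replication, which copy the genome in S phase, were a list in which the level fell with OXP and lay lower still with STS+OXP. Of 42 measured, 15 were lower for the interaction (35.7%, against 5.76% of all genes) and none higher, 7 reversing, 6 amplifying and 2 saturating. The median STS effect was -0.29 with OXP and 0.162 without it, and the median OXP effect was -1.90 in starved cells and -1.36 in full medium. The list median on single arrays, relative to the CTR mean, was -1.73, -1.68 and -1.75 in STS+OXP cells, -1.21, -1.60 and -1.35 in OXP and 0.194, 0.127 and 0.116 in STS, so the STS+OXP arrays lay below all OXP arrays. The count moved with the arrays. It was 21 without OXP replicate 2 and 5 to 7 on leaving out any single STS array, CTR replicate 1 or 3 or STS+OXP replicate 2 or 3.

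Pola1, the catalytic subunit of the primase polymerase, was at 3.58, 3.62 and 3.87 in STS+OXP cells, 4.59, 4.04 and 4.37 in OXP cells, 6.84, 6.80 and 6.87 in STS cells and 6.79, 6.78 and 6.74 in CTR. STS alone left it near CTR, and with OXP the starved arrays lay below all fed arrays (interaction -0.71, standard error 0.166, adjusted p = 0.0183, limma). Its STS+OXP mean was at background, not above the brightest control set of that group (3.72), so the interaction is a fitted value. Its adjusted p was 0.0508 without STS replicate 3 and 0.0525 without STS+OXP replicate 2. Fen1, a nuclease that trims lagging strand fragments, was at 4.79, 5.00 and 4.77 in STS+OXP cells, 5.80, 5.32 and 5.22 in OXP cells, 7.16, 7.11 and 7.34 in STS cells and 6.70, 7.27 and 6.95 in CTR (interaction -0.83, standard error 0.22, adjusted p = 0.0348). It was not called on leaving out CTR replicate 1 or 3, any single STS array or STS+OXP replicate 1 or 3 (adjusted p from 0.0552 to 0.0971). Rrm2, the subunit of ribonucleotide reductase that rises in S phase, was reversing, with 6.32, 6.05 and 6.26 in STS+OXP cells, 7.45, 6.56 and 7.07 in OXP cells, 8.77, 8.57 and 8.74 in STS cells and 8.31, 8.49 and 8.43 in CTR. The starved arrays were the lowest with OXP and the highest without it (interaction -1.10, standard error 0.236, adjusted p = 0.0104), and the call was lost with the average of its probe sets (-0.63, adjusted p = 0.118). Ccne2, a cyclin that opens S phase, had 3.82, 3.57 and 3.33 in STS+OXP cells, 4.67, 3.79 and 4.38 in OXP cells, 6.31, 6.15 and 6.33 in STS cells and 5.75, 6.08 and 5.78 in CTR, with the STS+OXP mean at background (interaction -1.10, standard error 0.262, adjusted p = 0.0196). Its call was lost on leaving out CTR replicate 1 or 3, STS replicate 1 or 3 or STS+OXP replicate 3 (adjusted p from 0.053 to 0.0595). In mitosis, by contrast, OXP lowered 31 of 32 genes and a single one was called for the interaction with all arrays, against 10 higher and 1 lower without OXP replicate 2. That one was Hmmr, a spindle protein (0.51, adjusted p = 0.0444), whose call was lost when any 1 of 9 arrays was left out (adjusted p from 0.0714 to 0.114) and whose sign turned with specific probe sets only (-0.15, adjusted p = 0.584).

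The remaining amplifying genes had small interactions. Shmt1, the cytosolic hydroxymethyltransferase, was at 6.32, 6.38 and 6.36 in STS+OXP cells, 5.86, 5.77 and 5.72 in OXP cells, 6.93, 7.09 and 6.93 in STS cells and 7.25, 7.11 and 7.10 in CTR. It was the only amplifying gene called between STS+OXP and OXP, and no group overlapped another (interaction 0.73, standard error 0.104, adjusted p = 0.0006). With the average of its probe sets the interaction was 0.13 (adjusted p = 0.494). Tmem97, a sterol-binding membrane protein, was at 6.25, 6.44 and 6.47 in STS+OXP cells, 5.71, 6.17 and 5.63 in OXP cells, 7.64, 7.66 and 7.44 in STS cells and 7.76, 7.91 and 7.77 in CTR (interaction 0.78, standard error 0.177, adjusted p = 0.0153). Mrpl18, a protein of the mitochondrial ribosome, had an STS effect of -0.44 with OXP and 0.21 without it (interaction -0.66, adjusted p = 0.00798). Ube2e2, an enzyme of ubiquitin transfer, had -0.59 and 0.12 (interaction -0.71, adjusted p = 0.0262), and was not called on leaving out CTR replicate 1, STS replicate 1 or 3 or STS+OXP replicate 1 or 2 (adjusted p from 0.0543 to 0.0748). The fatty acid dehydrogenase Acadl had -0.42 and 0.16 (interaction -0.58, adjusted p = 0.0234), lost on leaving out CTR replicate 1 or 3, STS replicate 1 or 3 or STS+OXP replicate 2 or 3 (adjusted p from 0.0533 to 0.0651) and with the average of its probe sets (-0.25, adjusted p = 0.141).

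**Figure D4:**
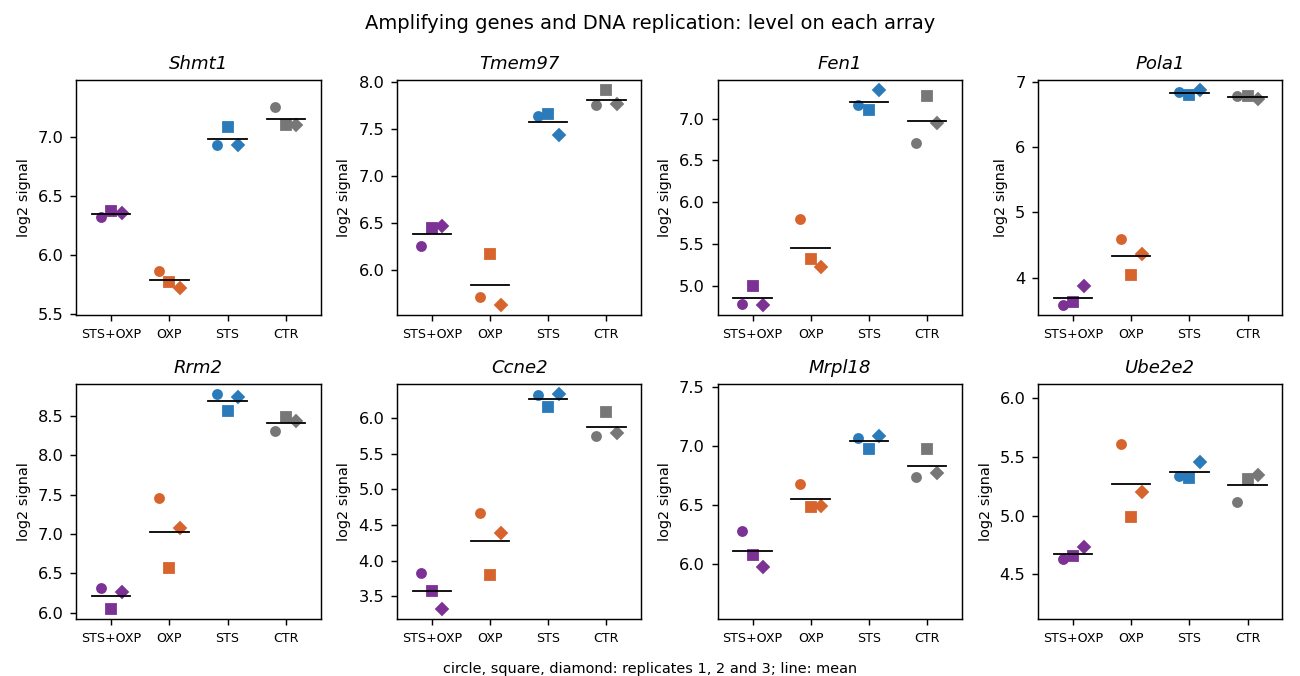
Log2 signal of 6 amplifying genes and of Rrm2 and Ccne2, which were reversing, on each array, in the order STS+OXP, OXP, STS and CTR, with symbols for replicates 1, 2 and 3 and a line at the mean of each group. STS and CTR lie close together in each gene, while STS+OXP and OXP differ by 0.44 to 0.82 in their means.

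The count of amplifying genes rested on OXP replicate 2. Without it 330 genes were amplifying (1.93%), 83 of them with the same sign of both STS effects, and 40 of the 52 were among the 330. The genes that then led were Cd68, Nfe2l1, Ces2g, Adcy7, Klf2 and Ociad2, none of which was called with all arrays. Cd68, a lysosomal protein used as a macrophage marker, was at 3.42, 3.24 and 2.93 in STS+OXP cells, 5.22, 3.07 and 4.92 in OXP cells, 2.87, 2.91 and 3.11 in STS cells and 2.95, 2.93 and 2.94 in CTR. It thus stood out only on OXP replicates 1 and 3, and its interaction was -1.90 without OXP replicate 2 (adjusted p = 1.56e-05) and -1.23 with it (adjusted p = 0.214). The mean level of the 13 macrophage markers was 3.33 to 3.35 in STS+OXP cells, 3.27 to 3.59 in OXP cells, 3.21 to 3.28 in STS cells and 3.23 to 3.34 in CTR, and 10 of the 13 were at background in every group. Klf2, a factor of quiescent cells, had an interaction of -1.52 without OXP replicate 2 (adjusted p = 0.000306) and -0.98 with it (adjusted p = 0.25).

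The targets of p53, which OXP is known to activate through DNA damage, were moved mainly by OXP, which raised 24 of 32. Called for the interaction were 9 (28.1%), 5 higher and 4 lower. Among the 5 was Gadd45a, described above after the ATF4 targets, which OXP lowered in full medium. Trp53inp1, which promotes death and autophagy, was at 10.56, 10.46 and 10.53 in STS+OXP cells, 10.52, 10.51 and 10.48 in OXP cells, 7.37, 7.41 and 7.54 in STS cells and 6.17, 6.44 and 6.35 in CTR. STS raised it by 1.12 without OXP and by 0.02 with it, at a level set by OXP (interaction -1.11, standard error 0.111, adjusted p = 3.54e-05, and -0.44 with the average of its probe sets). In Sesn2, a sensor of leucine that is also an ATF4 target, STS and OXP pulled apart, with 7.51, 7.61 and 7.47 in STS+OXP cells, 7.25, 7.39 and 7.48 in OXP cells, 6.19, 6.38 and 6.04 in STS cells and 6.96, 7.11 and 6.99 in CTR. STS lowered it without the drug, and the starved arrays with OXP were the highest or close to it (interaction 0.98, standard error 0.134, adjusted p = 0.000449). The average of its probe sets was not called (adjusted p = 0.0799). Bbc3, the BH3-only protein PUMA, had an STS effect of 0.30 with OXP and -0.62 without it (interaction 0.92, adjusted p = 0.0364), lost when any 1 of 8 arrays was left out (adjusted p from 0.0536 to 0.0888).

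Several programmes of metabolism held few called genes with all arrays. In glycolysis 1 of 16 genes was called, Hk2 (6.25%, under the 8.29% of all genes), but without OXP replicate 2 there were 3 (18.8%, over the 10.3% of all genes), 1 higher and 2 lower, and 9 of the 16 genes were then lower in STS+OXP than in OXP. With all arrays, the median STS effect was -0.36 with OXP and -0.42 without it. Pkm, the pyruvate kinase, had means of 10.0 in STS+OXP cells, 10.3 in OXP cells, 10.3 in STS cells and 10.7 in CTR and an interaction of 0.09 (standard error 0.235, adjusted p = 0.875). Ldha, which turns pyruvate into lactate, had an interaction of -0.09 (standard error 0.206, adjusted p = 0.847), and Pfkl, a phosphofructokinase, of 0.14 (standard error 0.394, adjusted p = 0.881). With these errors a small interaction could not be told from none. OXP replicate 2 stood apart here too, since the glycolysis median was -0.77 on that array, against -0.323 and -0.193 on the other OXP arrays and -0.714 to -0.653 in STS+OXP. In oxidative phosphorylation 0 of 72 genes and in the tricarboxylic acid cycle 0 of 21 were called in limma with all arrays, with 13 and 3 at an unadjusted p under 0.05, and 5 and 3 were called without OXP replicate 2, all lower.

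In cholesterol synthesis 2 of 19 genes were called (10.5%), both lower, with a median STS effect of 0.63 with OXP and 1.19 without it. Without OXP replicate 2 the median interaction was -0.272, against -0.556 with all arrays, and 19 of 19 genes were called higher in STS+OXP than in OXP, against 0 with all arrays. The lower calls for the interaction numbered 7 without OXP replicate 3. The list median on single arrays, relative to CTR, was 1.20, 1.18 and 1.04 in STS+OXP cells, 0.265, 1.11 and 0.0899 in OXP and 1.16, 1.20 and 1.10 in STS. OXP replicate 2 alone of the fed arrays thus lay at the level of starved cells. Hmgcs1, the synthase at the head of the pathway, was at 4.19, 4.14 and 4.08 in STS+OXP cells, 2.70, 4.32 and 2.98 in OXP cells, 5.65, 5.42 and 5.50 in STS cells and 2.95, 2.98 and 2.97 in CTR. It was at background in OXP and CTR by the means, so the fitted interaction of -1.76 (standard error 0.405, adjusted p = 0.0163) is not a measured size, and it was not called with eBayes with trend and robust (adjusted p = 0.06). Dhcr7, the last enzyme, had an STS effect of 0.46 with OXP and 1.35 without it (interaction -0.90, adjusted p = 0.006).

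**Figure D5:**
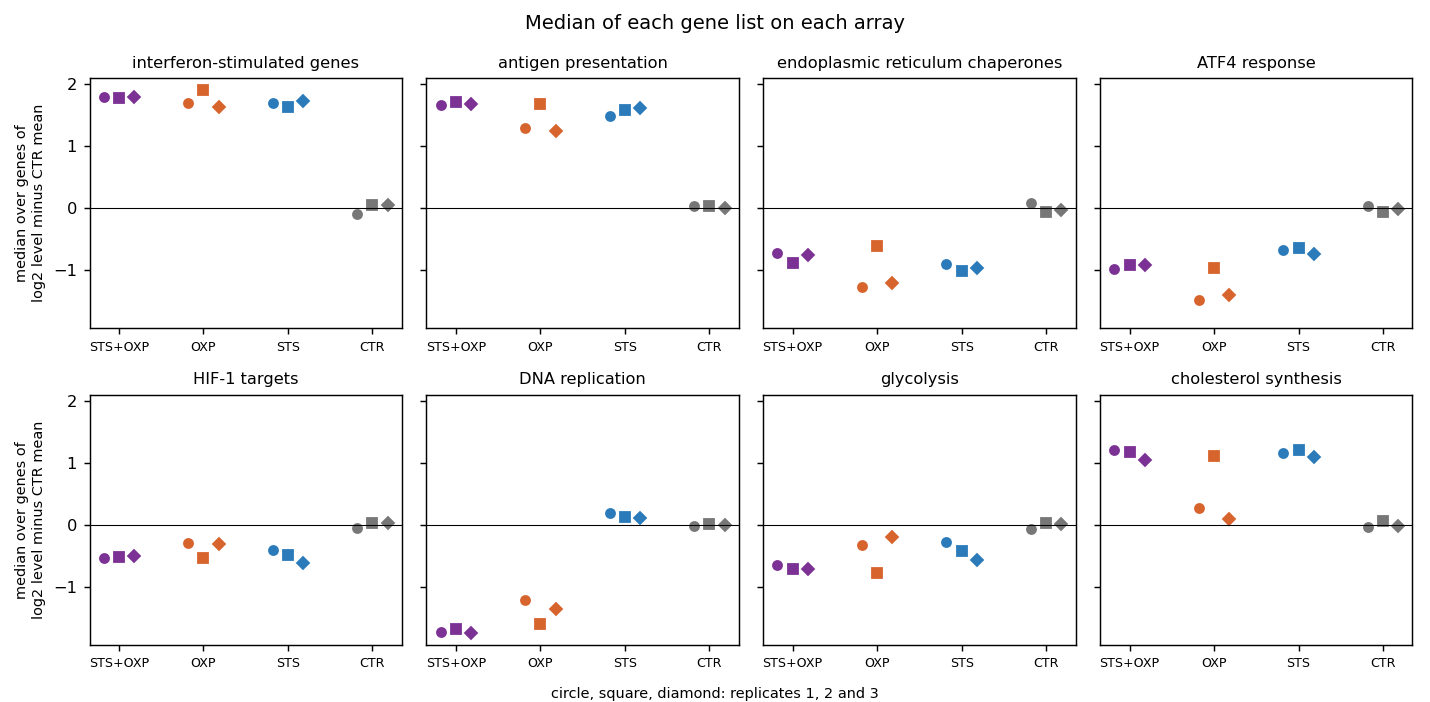
Median over the genes of 8 lists of the log2 level minus the CTR mean of each gene, on each array, in the order STS+OXP, OXP, STS and CTR, with symbols for replicates 1, 2 and 3. The interferon-stimulated genes lie at 1.63 to 1.91 on all treated arrays, the DNA replication genes lie lowest in STS+OXP, and in cholesterol synthesis OXP replicate 2 lies at 1.11 while the other OXP arrays lie at 0.265 and 0.0899.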

How the data were processed

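The authors hybridized labelled RNA to Affymetrix mouse arrays and deposited log2 values made with RMA in R 3.02, according to the submitters' notes. RMA corrects background, equalizes arrays by quantiles and summarises probes, so a shift common to most genes would be removed. No further normalization or filter was applied. Probe sets with 1 gene symbol were used (28898 of 45141), the one with the highest mean over the 12 arrays for each of 17097 genes. limma 3.58.1 in R 4.3.3 fitted the 4 group means to all arrays, with residual degrees of freedom of 8 plus 5.05 from the prior. Tests were two-sided, with Benjamini-Hochberg adjustment over all genes and calls at an adjusted p under 0.05. The script was tested on simulated data. Background means a group mean not above the brightest of the 22 targetless control sets on any array of that group. A distance given with "at least" was taken otherwise. Each array of the dimmer group was first raised to the brightest control set of that same array where it lay below it. The mean of these values was then set against the mean of the brighter group. A probe set shared by relatives can read both.

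The members and the 37 gene lists were chosen with earlier results of these data known. Named are the 6 genes with the largest interaction in each of saturating up, saturating down, reversing and amplifying, the 6 with the smallest adjusted p, up to 3 per list, and glucose and glutamine genes that the study names (RIKEN clones and gene models passed over); other genes were chosen after their values were seen. Promoters are RefSeq's for GRCm38.p6, matched by gene ID for 13514 genes, with 6 motifs searched, 3 of them chosen after the values were seen. Of the motifs, CACGTG was found in 7.6% and TTTGAA in 11.9% of all promoters, and in 4.44% and 20% of those of 45 amplifying genes. No pairing of the arrays by replicate number was visible in the values. The alternatives were other scalings, probe set choices, filters, variance models, a block and arrays left out. Array number limits the precision.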

Additional observations from a re-analysis of the deposited data

Results flagged for a closer look

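The STS effect differed with and without OXP, by the test of the interaction, in 1417 genes. Those with the largest values in each shape, or the smallest adjusted p, are given with the interaction on the log2 scale. Among saturating genes raised by STS these were Iigp1 (-3.10), Csprs (-3.03), Ifi44l (-2.98), Aldh1a1 (-2.92), Ogn (-2.91), Ifi27l2a (-2.84), Gbp2 (-2.66), Lgals9 (-2.16) and Ifit1 (-1.58). Among those lowered by STS they were Stbd1 (3.78), Car6 (3.53), Angptl6 (2.63), Herpud1 (2.08), Cth (1.79) and Chka (1.64). Reversing genes were Fos (-3.47), Creld2 (3.08), Sdf2l1 (3.08), Trib3 (3.04), Cryab (-2.78), Gbp2b (-2.71) and Pnp2 (-1.93), and amplifying genes were Fen1 (-0.83), Tmem97 (0.78), Shmt1 (0.73), Pola1 (-0.71), Ube2e2 (-0.71) and Mrpl18 (-0.66). The values of Car6 and Cth, at background in all treated groups, and of Csprs and Cryab, at background in CTR, are fitted ones. So is that of Pola1, at background in STS+OXP by its mean. These are not measured sizes, and their place in this order is not measured. Stbd1 lay little above background in all treated groups.

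Signal also appeared outside the main measurement. Of 15588 probe sets without a gene symbol here, fitted by themselves, 306 (1.96%) were called for the interaction, 110 higher and 196 lower, while 67.8% of these probe sets had a mean at the level of control probe sets without a target.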

How the results depend on the processing

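The number of interactions stayed within 1.5 times 1417 under other scalings, probe set choices, filters and variance models (1153 to 1728), without OXP replicates 1 and 2 (1555) and with any 1 array left out (955 to 1756). With an absolute interaction of at least 1, 362 genes were called (81 higher, 281 lower). The methods' unequal-variance test, extended to 4 means, gave 2591 unadjusted and 155 after Benjamini-Hochberg. The sign held on the linear scale for all called genes but 1. No scaling moved the median of all genes by over 0.1 or the share of negative calls by over 10 percentage points. The counts that moved were mainly those for STS+OXP against OXP, with 4 under median centring, 0 with averaged probe sets, trend and robust, array quality weights or a replicate block, 688 without OXP replicates 1 and 2, and 0 to 1166 with any 1 array left out. STS against CTR gave 4400 with array quality weights. Reversing genes numbered 156 with averaged probe sets, 23 at a limit of 0.5, 985 at a limit of 0 and 141 to 414 with any 1 array left out, and saturating genes 431 at a limit of 0. Amplifying genes numbered 144 with array quality weights, 315 without OXP replicates 1 and 2, 98 at a limit of 0.5, 1 at a limit of 0 and 12 to 330 with any 1 array left out, and positive interactions 271 to 607. The cause was not tested.

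For 102 named genes under 23 settings there were 2312 values. Some had no call to lose, being on the linear scale (no test) or of genes not called with all arrays. Of all 2312, 236 lost the call and 17 turned sign. These were Slc1a5 (0.0063 with cyclic loess, 0.30 with averaged probe sets), Hmmr (-0.15 with specific probe sets), Pfkl (-0.0279 with array weights, -0.71 without OXP replicates 1 and 2, and -0.0755 to 0.57 with any 1 array left out), Pkm (-0.0168 with array weights, -0.37 without OXP replicates 1 and 2, -0.13 to 0.32 with any 1 array left out), Slc5a1 (-0.0360 without OXP replicates 1 and 2, -0.0157 to 0.15 with any 1 array left out), Ldha (-0.33 to 0.0356 with any 1 array left out), and on the linear scale Ogn (8.75) and Ldha (208.2). Except for Ogn and Hmmr, these genes were not called with all arrays. With replicate number as a block 1250 genes were called. Deviations of same-numbered arrays correlated at -0.199 to 0.102, and of arrays with different numbers at -0.192 to 0.254. No pairing by number was visible in these values, which cannot show that the arrays were run unpaired.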

Other observations

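Extracellular matrix genes and their enzymes held 13 called genes of 35 (37.1%), all lower for the interaction and 12 of them saturating, with a median STS effect of 0.0479 with OXP and 0.28 without it. Col6a1, a chain of collagen VI, was at 7.26, 7.24 and 7.16 in STS+OXP cells, 7.09, 7.18 and 7.07 in OXP cells, 7.34, 6.99 and 6.99 in STS cells and 5.56, 5.70 and 5.78 in CTR, so the treated groups overlapped above CTR (interaction -1.32, standard error 0.137, adjusted p = 4.86e-05). Thbs2, a thrombospondin that restrains vessel growth, had an interaction of -1.26 (adjusted p = 2.71e-05). Nrp1, a coreceptor for vascular growth factors, had an interaction of -2.42 (adjusted p = 1.56e-05). Nrp1 is not on the matrix list but on that of angiopoietins and vascular growth factors, with 2 lower and 1 higher of 20 (15%). Targets of FoxO factors, which insulin signalling holds back, held 9 lower and 1 higher of 23 (43.5%). The higher one was Gadd45a, described above. The lower ones were led by Sesn3, an inhibitor of the kinase mTORC1 (interaction -1.57, adjusted p = 0.000203, limma), which had means of 6.32 in STS+OXP cells, 6.29 in OXP cells, 6.24 in STS cells and 4.64 in CTR. With any 1 array left out 5 to 11 of the 23 were lower, with 5 without STS replicate 3 or STS+OXP replicate 2 or 3.

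Autophagy and lysosome genes held 12 lower of 38 (31.6%), such as Npc2, a carrier of cholesterol out of lysosomes (interaction -0.71, adjusted p = 0.000536), and none higher, but 7 lower without STS replicate 2 or STS+OXP replicate 2 or 3. ERK pathway feedback genes held 5 lower and 2 higher of 20 (35%). Dusp1, a phosphatase of MAP kinases, was at 10.14, 10.33 and 10.16 in STS+OXP cells, 10.34, 10.25 and 9.94 in OXP cells, 9.27, 9.35 and 8.94 in STS cells and 7.02, 7.65 and 7.40 in CTR (interaction -1.79, standard error 0.218, adjusted p = 0.000171). Myc, a transcription factor whose targets include genes of ribosome building, went the opposite way (interaction 0.83, adjusted p = 0.00198), and in ribosome biogenesis 6 of 42 genes were higher (14.3%) and none lower, 2 to 13 with any 1 array left out (2 or 3 without CTR replicate 1, STS replicate 2 or 3 or STS+OXP replicate 1 or 3, 13 without OXP replicate 1 and 10 without OXP replicate 2). In NRF2 and antioxidant genes 3 were higher and 2 lower of 23 (21.7%), and the higher ones numbered 0 without CTR replicate 1 or STS replicate 1, 1 without STS+OXP replicate 2 and 5 without OXP replicate 3. Hmox1, haem oxygenase, was at 5.27, 5.34 and 5.14 in STS+OXP cells, 6.36, 5.21 and 6.27 in OXP cells, 4.75, 5.03 and 4.91 in STS cells and 6.96, 6.98 and 6.80 in CTR (interaction 1.31, standard error 0.313, adjusted p = 0.0196). OXP replicate 2 again lay with STS+OXP, and the call was lost without any 1 of CTR replicate 1, STS replicate 1 and STS+OXP replicate 2 (adjusted p from 0.053 to 0.0575).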
